A study of Mus musculus with 3 samples.

Results

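The Norrin receptor complex was followed through 3 single-cell RNA libraries of mouse retina as 6 genes: Ndp, Tspan12, Fzd4, Lrp5, Lrp6 and Ctnnb1. The genes were chosen by name, as the ligand, the receptor subunits, the co-receptors and the transducer of 1 pathway, and all 6 are among the 24071 genes of each table. The libraries came from retinas at postnatal day 26 (P26): 1 wild-type (WT) library, 1 Tspan12 knockout (KO) library, and 1 library of Tspan12 KO mice given F4L5.13, an engineered antibody that binds FZD4 and LRP5 together (the treated library). The treated mice had received F4L5.13 by the intraperitoneal route, with 3 doses of 10 mg/kg (P6, P9, P12) and then 4 mg/kg at intervals of 3 days. All 3 samples, WT included, carry the same strain entry, Tspan12tm1.2Hjug, and the labels give neither the sex nor the number of mice behind a library. In every sample, beads against CD73 and Annexin V had been used to deplete photoreceptors and dying cells from the suspension. With 1 library per group there is no replicate: no test between groups was possible, and every interval below is a 95% interval that covers counting error only.

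Norrin, the product of Ndp, is a secreted cystine-knot protein that binds the receptor Frizzled-4 (FZD4) on retinal endothelial cells. The tetraspanin TSPAN12 and the co-receptor LRP5 form part of the same complex, LRP6 is the close relative of LRP5, and β-catenin, encoded by Ctnnb1, carries the signal to the nucleus. Loss of the ligand, the receptor, LRP5 or TSPAN12 leaves the retina without its deep capillary layers, and in the retina the ligand is known to come mainly from Müller glia.

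There were 6092 barcodes in WT, 10769 in KO and 9835 in treated, of which 5785, 9357 and 8215 passed the filters, with medians of 14797, 7351 and 6588 reads over all barcodes. Between 15 and 31 barcode sequences recurred between any pair of libraries. Cells were grouped by clustering and carry the name of the class whose markers they express, so Müller-like, astrocyte-like and other such classes are called Müller cells, astrocytes and so on from here. The astrocyte cluster met the marker rule with 7 of its 8 listed markers (and 3 Müller markers), the horizontal cluster with 7 of 9, the microglia cluster with 12 of 12, and both endothelial clusters with 12 of 12. The larger endothelial cluster, which holds 56 of the 88 WT and 12 of the 21 treated endothelial cells, also met 9 of 11 mural and 5 of 5 red blood cell markers; the smaller one met 2 mural markers and 1 red blood cell marker. Over the endothelial class the summed mural markers stood at 4460 CPM in WT and 5713 in treated, against 18323 to 30891 in mural cells, and haemoglobin reads made up 4.19% and 3.14% of all reads. The part of these transcripts in the endothelial values was not tested. The sizes of these classes differed widely between libraries: 1702, 1363 and 1248 Müller cells, 47, 26 and 22 astrocytes, 38, 76 and 95 horizontal cells, 113, 1169 and 128 amacrine cells, and 88, 1 and 21 endothelial cells in the WT, KO and treated libraries. Levels are given as CPM, the reads of a gene scaled by all reads of the class, and a ratio counts as past the fold at 1.5 in either direction.

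The levels of Ndp and Tspan12 followed each other over the cell classes and those of Ndp and Fzd4 ran opposite, so the sequences before the start sites of these 3 genes are shown. Each is the 250 bases before the annotated start, 5′ to 3′ on the gene's own strand, from RefSeq on GRCm38.p6: chrX:16911775-16912024 on the minus strand for Ndp, chr6:21852534-21852783 on the minus strand for Tspan12, and chr7:89404116-89404365 on the plus strand for Fzd4. Capitals mark matches on either strand to ACGTG or GCGTG, the cores of hypoxia and related response elements, or to CTTTGAT, a core bound by the TCF and LEF partners of β-catenin.
Ndp: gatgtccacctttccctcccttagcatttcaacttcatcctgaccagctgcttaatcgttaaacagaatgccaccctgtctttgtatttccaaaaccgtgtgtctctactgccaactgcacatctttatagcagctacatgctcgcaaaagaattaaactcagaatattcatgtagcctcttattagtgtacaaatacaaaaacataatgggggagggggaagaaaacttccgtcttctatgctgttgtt
Tspan12: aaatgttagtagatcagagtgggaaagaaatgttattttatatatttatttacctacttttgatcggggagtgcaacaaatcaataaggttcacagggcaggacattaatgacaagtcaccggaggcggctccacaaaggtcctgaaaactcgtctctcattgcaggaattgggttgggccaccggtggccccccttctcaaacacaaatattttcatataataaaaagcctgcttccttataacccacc
Fzd4: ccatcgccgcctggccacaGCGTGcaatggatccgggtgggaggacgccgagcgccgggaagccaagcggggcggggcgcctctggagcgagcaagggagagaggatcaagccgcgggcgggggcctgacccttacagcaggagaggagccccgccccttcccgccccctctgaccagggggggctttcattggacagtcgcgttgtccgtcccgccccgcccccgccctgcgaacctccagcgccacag
Over the RefSeq windows of 300 bases, which include 50 bases past the start, the Ndp and Tspan12 windows held no match, and the Fzd4 window held 1 GCGTG match and no overlapping ones. Of all 32851 such windows, 19.6% held ACGTG, 32.4% held GCGTG and 3.73% held CTTTGAT. GC content was 43% for Ndp, 44% for Tspan12 and 72.7% for Fzd4, against a median of 52.7% over all windows. Windows were matched for 4 of the 6 genes. A match is a description of the letters only.

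Tspan12, the gene targeted in the KO, gave reads in every library: 3178 in WT, 2392 in KO and 1821 in treated, over all barcodes. The assay reads the 3′ end of a transcript, and the labels do not say which part of the gene was deleted, so these reads say nothing about the deletion. In the annotation (GENCODE vM21, GRCm38), Tspan12 spans chr6:21771395-21852515 on the minus strand, and its first 98 bases overlap Gm30270 on the other strand. Over all kept cells its level was 27.5 CPM in WT, 17.5 in KO and 14.6 in treated, levels that also depend on the class sizes given above.

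The ligand, Ndp (chrX:16885521-16911774, minus strand), was highest in horizontal cells in every library, then in astrocytes or Müller cells. Horizontal cells, the interneurons that link photoreceptor terminals, held 83.8 CPM in WT (63.8 to 108), 53.2 in KO (41.6 to 66.9) and 56.7 in treated (46.5 to 68.6). Reads of Ndp were found in 78.9%, 64.5% and 76.8% of these cells. The WT horizontal cells stood above those of both other libraries, with ratios of 0.635 (0.444 to 0.911) for KO against WT and 0.677 (0.488 to 0.947) for treated against WT. The KO ratio fell short of 1.5-fold, at −0.53 and −0.55 on the log2 scale in place of −0.66, with the mean of each cell's CPM and with no doublets left out.

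Müller glia, the radial glia that span the retina, showed another order for Ndp. Their level was 25.1 CPM in WT (22.5 to 27.9), 38.2 in KO (35.0 to 41.6) and 28.9 in treated (25.7 to 32.3), and 24.2%, 35.8% and 27.3% of the cells had reads. After thinning each cell to 4000 reads, these shares were 8.8%, 12.9% and 8.6%. The KO Müller cells were the highest of the 3, 1.52-fold above WT (1.32 to 1.75), and the treated cells were at 0.756 of KO (0.655 to 0.873). The treated cells lay 1.15-fold above WT, with an interval of 0.982 to 1.35 that spans 1. That ratio differed between the Müller clusters given below. With Müller cells named one by one by their own markers, the log2 ratio of Ndp for KO against WT was 0.37 in place of 0.61, short of the fold.

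Astrocytes, which guide the growing superficial vessels, held Ndp at 54.8 CPM in WT (39.6 to 74.0), 20.5 in KO (10.0 to 37.3) and 30.4 in treated (16.8 to 50.6). The KO value rests on 26 cells and 30 reads, and 5 cells gave 70.0% of those reads. WT astrocytes stood highest, with a ratio of 0.374 for KO against WT (0.171 to 0.749), and in WT they did not differ from horizontal cells beyond counting error. Against WT, the Ndp level in the KO library was thus lower in horizontal cells and astrocytes and higher in Müller cells.

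Outside these 3 classes Ndp was low. Amacrine cells, mostly inhibitory neurons that shape signals onto ganglion cells, held 4.38, 5.76 and 4.79 CPM in WT, KO and treated, which is 17.5%, 15.1% and 16.6% of the Müller level. For scale, 5 Müller transcripts (Glul, Rlbp1, Slc1a3, Aqp4 and Apoe) stood in amacrine cells at a median of 2.22%, 0.552% and 0.476% of their own Müller level, so the amacrine share of Ndp was above that of these transcripts. Within the class, the amacrine cluster led by Cbln2 and Cbln1 held 12.4 CPM in KO (8.25 to 17.9; 332 cells). Ganglion cells, counted only in the KO library (29 cells), held 18 CPM (8.78 to 32.6).

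In bipolar cells, the relay neurons between photoreceptors and ganglion cells, 9, 3 and 2 Ndp reads were found among 2712, 1766 and 2251 cells. That is 0.332%, 0.170% and 0.0888% of the cells, at median depths of 11422, 11012.5 and 13156 reads, against 19459.5, 27350 and 23472.5 in Müller cells, and a level of 0.910%, 0.298% and 0.183% of the Müller level, not above the highest of the 5 Müller transcripts there (1.31%, 1.24% and 1.40%). Rods held 0.566, 0.581 and 0.297 CPM and cones 0.760, 0.444 and 0.558 CPM, at 2.25%, 1.52% and 1.03% of the Müller level in rods. Endothelial cells, where the receptor is, gave 3 Ndp reads in WT and none in treated, where 3 counts would be 8.92 CPM.

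By source, Müller cells gave 74.9%, 79.2% and 70.2% of all Ndp reads in kept cells of the WT, KO and treated libraries, from 36.2%, 34.1% and 31.0% of all reads. Horizontal cells gave 13.0%, 10.9% and 24.7%, from 1.89%, 3.36% and 5.58% of all reads. Ndp is X-linked: Xist gave 12 to 19 reads in each library and the Y-linked Ddx3y 7961 to 10126 in each, with no library standing apart in these genes.

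**Figure D1:**
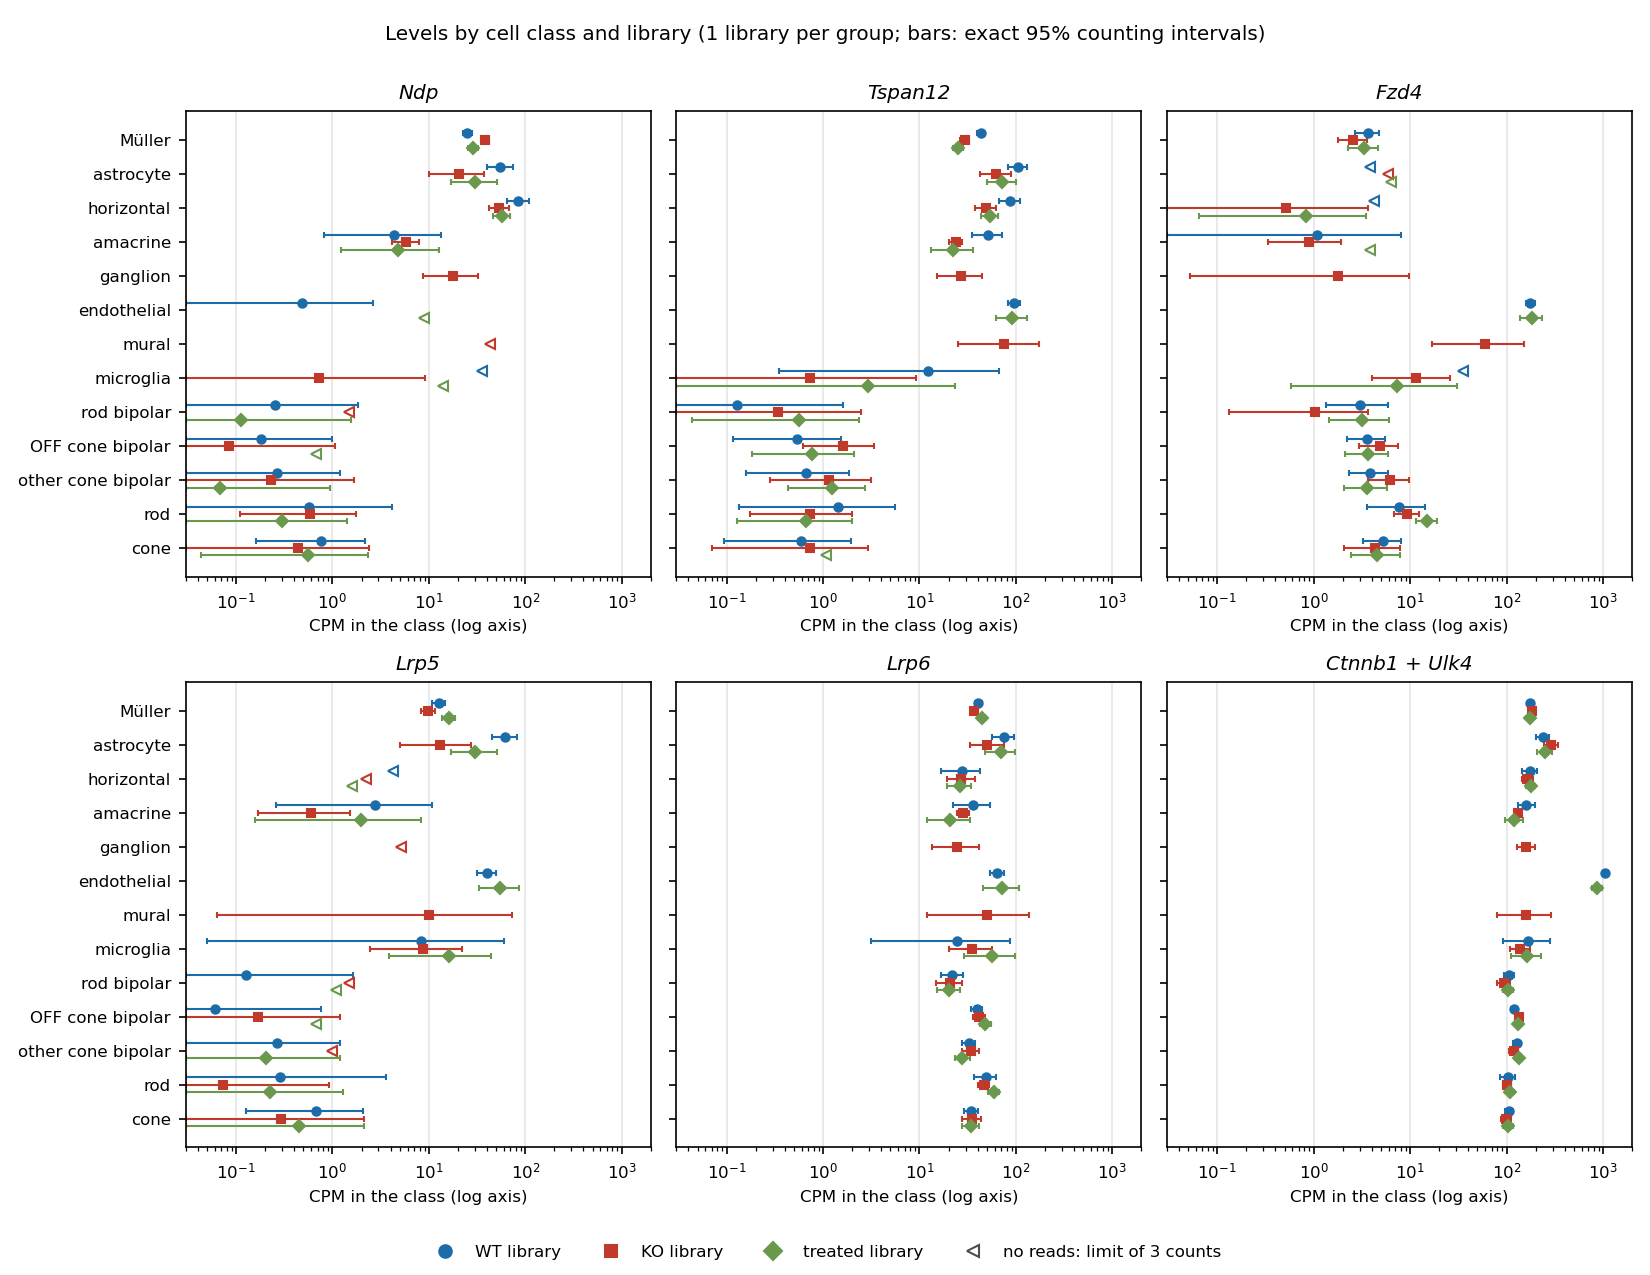
Level of each gene by cell class (rows) and library (colors) in CPM on a log axis; points are single libraries, bars are exact 95% counting intervals, and open triangles give the level of 3 counts where a class of at least 10 cells had no reads. Ndp sits highest in horizontal cells and Fzd4 in endothelial cells, while Lrp6 and the sum of Ctnnb1 and Ulk4 have reads in every class drawn.

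Tspan12, the tetraspanin that joins the ligand-bound receptor, had high levels in 5 classes of the WT library: astrocytes, endothelial cells, horizontal cells, amacrine cells and Müller cells. In WT these stood at 105, 94.9, 86.8, 50.9 and 43.3 CPM in that order, and each overlapped the next within counting error. Endothelial cells held 94.9 CPM in WT (82.2 to 109) and 91.2 in treated (61.8 to 130), with reads in 87.5% and 71.4% of 88 and 21 cells, a ratio of 0.961 (0.635 to 1.41). Without the 5 cells with most Tspan12 reads in each library, a larger share of 21 than of 88 cells, the log2 ratio went from −0.06 to −0.98. The smaller endothelial cluster, with few mural markers, held 101 CPM of Tspan12 in 32 WT cells (72.3 to 137), within the interval of the class. The single KO endothelial cell, at 6352 reads in all, had no Tspan12 read.

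In the other 4 classes the Tspan12 level was lower in KO and in treated than in WT, past counting error in each case but the treated astrocytes. Müller cells held 43.3 CPM in WT (39.9 to 47.0), 29.3 in KO (26.6 to 32.3) and 25.2 in treated (22.2 to 28.4), ratios to WT of 0.677 (0.595 to 0.770) and 0.581 (0.501 to 0.674). Horizontal cells held 86.8 CPM in WT (66.4 to 111), 49.1 in KO (38.0 to 62.4) and 53.4 in treated (43.4 to 64.9), ratios of 0.566 (0.394 to 0.814) and 0.615 (0.443 to 0.860). KO and treated cells overlapped in both classes, and WT stood above both.

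Amacrine cells showed the same order for Tspan12, 50.9 CPM in WT (34.9 to 71.9), 23.6 in KO (20.2 to 27.6) and 22.4 in treated (13.2 to 35.6), ratios of 0.464 (0.317 to 0.700) and 0.439 (0.231 to 0.810). The class is made of several clusters that the libraries share unequally. In the cluster led by Nhlh2, Prdm13 and Ebf3 the levels were 66.0, 30.4 and 33.2 CPM, and in that led by Tmem114, Lpl and Mmp9 they were 74.5, 26.6 and 19.4 CPM. The cluster led by Hao2, Slc6a12 and Ptgis went the other way, at 12.2, 14.3 and 22.1 CPM. Astrocytes held 105 CPM in WT (83.6 to 131), 62.3 in KO (42.5 to 88.0) and 72.0 in treated (49.9 to 100), ratios of 0.592 (0.380 to 0.902) and 0.684 (0.445 to 1.03).

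Tspan12 reads were close to absent from bipolar cells, rods and cones, but not from ganglion cells. These were counted only in the KO library (29 cells) and held 27.0 CPM. Bipolar cells held 0.508, 1.18 and 0.901 CPM, rods 1.41, 0.726 and 0.668 CPM, and cones 0.591, 0.740 and no read. In bipolar cells this is 1.17%, 4.01% and 3.58% of the Müller level, against a median of 0.428%, 0.516% and 0.308% for the 5 Müller transcripts that mark free RNA. The highest of these transcripts stood there at 1.31%, 1.24% and 1.40%, which the Tspan12 share passed in KO and treated but not in WT. Müller cells gave 57.0%, 57.4% and 53.5% of the Tspan12 reads, endothelial cells 19.6% in WT and 6.24% in treated, and amacrine cells 23.2% in KO.

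**Figure D2:**
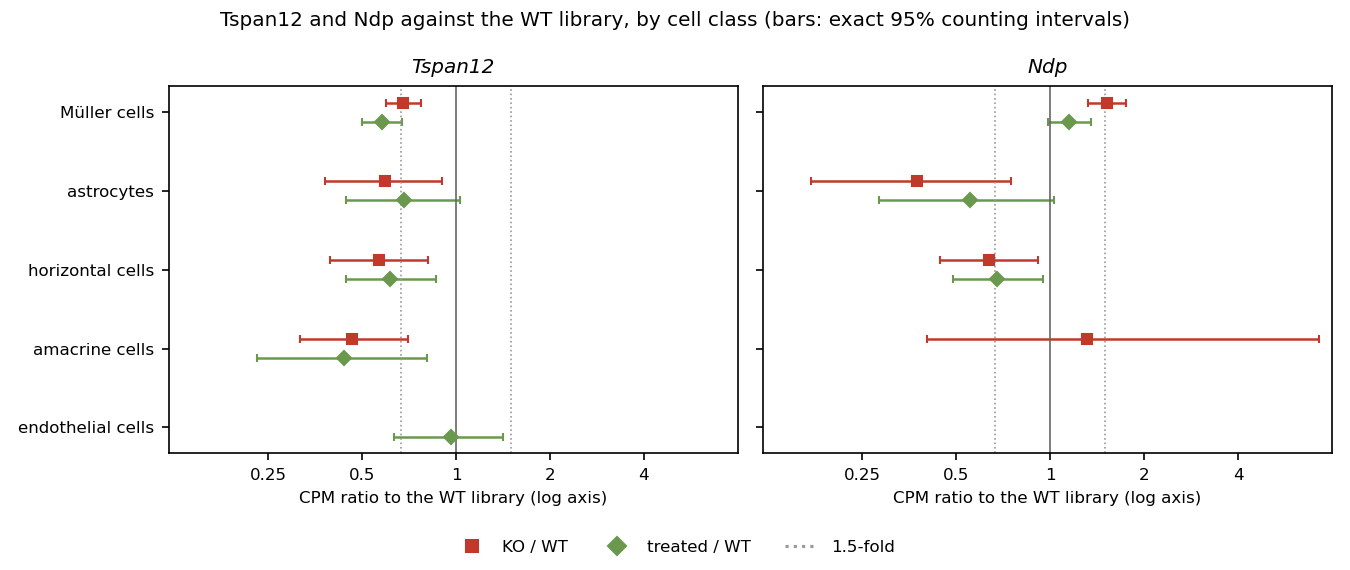
CPM ratio of the KO (squares) and treated (diamonds) library to the WT library for Tspan12 (left) and Ndp (right) in each class, on a log axis with exact 95% counting intervals; dotted lines mark 1.5-fold. Tspan12 lies below 1 in Müller cells, astrocytes, horizontal cells and amacrine cells, while Ndp lies above 1 in Müller cells and below 1 in astrocytes and horizontal cells.

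The Müller values move with which Müller clusters a library holds. Cluster 3, led by Hes5, held 56.6% of the WT Müller cells, and cluster 6, led by Ndufa4l2 and Apln, held 51.9% of the KO cells. Over the class, Ndufa4l2 stood at 97.1 CPM in WT, 1489 in KO and 171 in treated, and Gfap, which rises in stressed glia, at 16.4, 242 and 72.8 CPM. Within cluster 4, shared by 329 WT, 384 KO and 334 treated cells, Ndp was 2.0-fold higher in KO than in WT (1.48 to 2.74), and within cluster 15 it was 2.37-fold higher (1.42 to 4.17). The Ndp ratio was 1.51 in cluster 3 (0.795 to 2.63) and 3.06 in cluster 6 (0.929 to 19.3), with intervals that span 1. The Tspan12 difference was not as even, at a ratio of 0.810 (0.597 to 1.10) in cluster 4 and of 1.70 (1.03 to 2.92) in cluster 15, where its direction turned. The Tspan12 ratio was 0.469 (0.197 to 0.948) in cluster 3, with 37 KO cells, and 0.574 (0.315 to 1.16) in cluster 6, with 25 WT cells. In cluster 3 the treated cells stood at 0.632 of WT for Tspan12 (0.499 to 0.793). The same ratio was 0.871 in cluster 4, 0.763 in cluster 15 and 0.718 in cluster 10, with intervals that span 1. In cluster 6, with 25 WT cells, it was 0.346 (0.152 to 0.819). For Ndp, the treated cells stood at 1.52 of WT in cluster 4 (1.09 to 2.15) and at 4.18 in cluster 6 (1.205 to 27.2). The Ndp ratio of treated to WT was 1.62 in cluster 15, 1.14 in cluster 10 and 0.918 in cluster 3, with intervals that span 1. Clusters 4 and 15 also met the marker rule for rods or cones. Their rod markers stood at 30512 and 33179 CPM in WT, against 20067 and 17003 CPM in KO. The part of this rod RNA in the Ndp ratios of these clusters was not tested. The part of the cluster mix in the other class values was not tested.

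**Figure D3:**
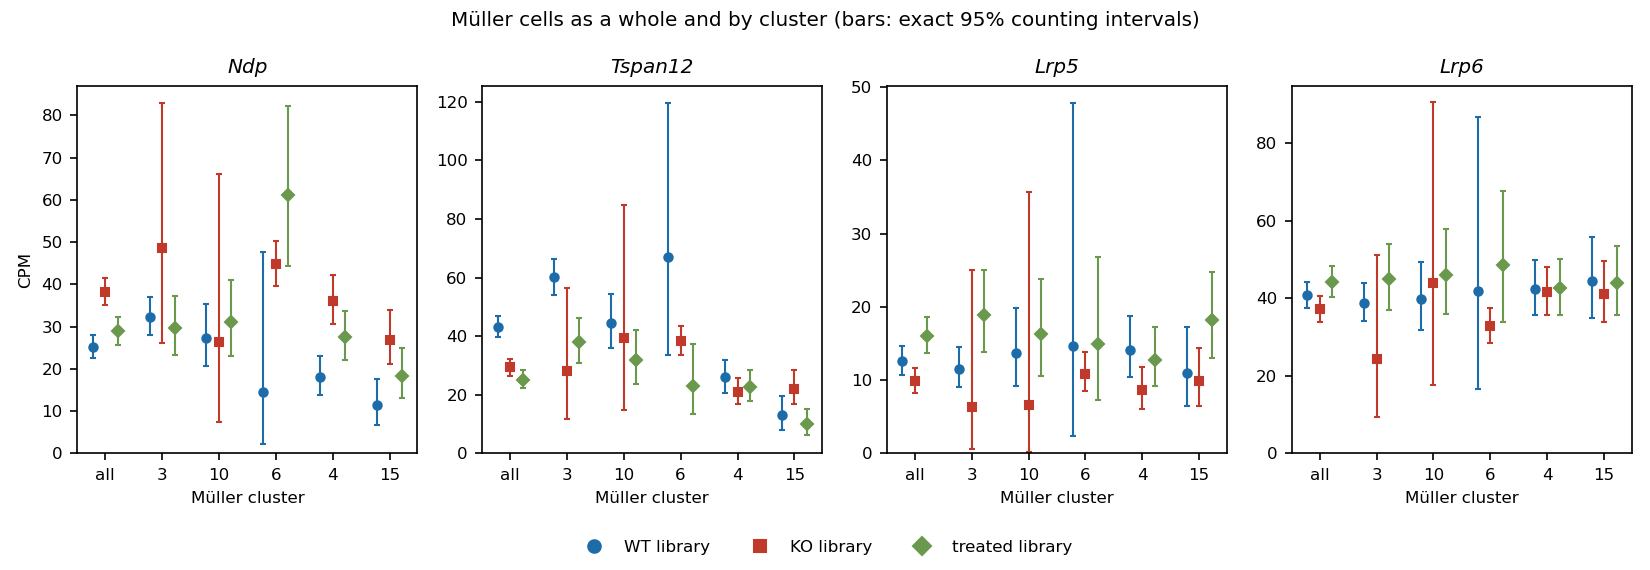
Level of Ndp, Tspan12, Lrp5 and Lrp6 (panels) over all Müller cells and in each of 5 Müller clusters (x axis), in CPM by library (colors) with exact 95% counting intervals. Ndp in KO lies above WT in clusters 4 and 15, and Tspan12 in cluster 3 lies at 60.1 CPM in WT, 28.2 in KO and 37.9 in treated.

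Fzd4 (chr7:89404355-89413134, plus strand), the receptor that binds Norrin, was highest among the named classes in endothelial cells in WT and treated, and in mural cells in KO, where only 1 endothelial cell was found. Endothelial cells held 177 CPM in WT (160 to 196) and 182 in treated (140 to 234), with reads in 89.8% and 76.2% of the cells, a ratio of 1.03 (0.773 to 1.35). In the treated library 5 of the 21 cells gave 69.9% of the Fzd4 reads, and without the 5 cells with most Fzd4 reads in each library the log2 ratio went from 0.04 to −1.45. The unnamed vascular cluster, which carries endothelial and mural markers, held 113 CPM in WT (86.3 to 147; 28 cells) and 165 in treated (125 to 214; 18 cells). It had no Ndp read. Mural cells, counted in the KO library as 12 cells, held 60.1 CPM (17.0 to 151). Endothelial cells gave 66.2% of the Fzd4 reads in WT and 22.0% in treated, and over all kept cells Fzd4 stood at 15.2, 3.90 and 8.30 CPM, in the order of the endothelial cell number.

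Away from vessels Fzd4 was low but not absent. Rods, the dim-light photoreceptors, held 7.64 CPM in WT (3.55 to 14.3), 9.29 in KO (6.77 to 12.5) and 15.0 in treated (11.5 to 19.2). These are 209%, 362% and 455% of the Müller level, and the 5 Müller transcripts stood in rods at a median of 1.59%, 1.18% and 0.98% of theirs. Fzd4 was highest in vascular cells, not in Müller cells, so these transcripts cannot gauge its free RNA. The part of free RNA in the rod values of Fzd4 was not tested. The treated rods were 1.61-fold above KO (1.08 to 2.42). In that comparison 1 of 3 tested members, Fzd4, was past the fold upwards, where 4.57% of all genes tested were. Rods gave 28.2% of all Fzd4 reads in KO. Cones held 5.24, 4.29 and 4.57 CPM, bipolar cells 3.58, 4.44 and 3.52, and Müller cells 3.65, 2.57 and 3.30. In the KO library, rod bipolar cells held 1.03 CPM (0.134 to 3.64). The bipolar cells named neither rod nor OFF cone bipolar, some of whose clusters met 1 or 2 OFF markers, held 6.16 (3.68 to 9.68). Of the latter, the cluster led by Lrrtm1 and Htr3a held 7.44 CPM in WT (3.05 to 15.1), 11.9 in KO (4.18 to 26.7) and 2.43 in treated (0.266 to 9.10), intervals that all overlap. Microglia held 11.6 CPM in KO (4.06 to 26), from 16 reads in 5.95% of 84 cells. Astrocytes had no Fzd4 read in any library, where 3 counts would be 3.88, 5.89 and 6.33 CPM.

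Lrp5 (chr19:3584828-3686564, minus strand), the co-receptor for Norrin, was found in glia and endothelial cells. Müller cells held 12.6 CPM in WT (10.8 to 14.6), 9.86 in KO (8.28 to 11.7) and 16.0 in treated (13.6 to 18.6). The KO cells were lowest, at 0.784 of WT (0.621 to 0.988), a log2 ratio of −0.35 that turned to 0.15 with cells named one by one. The treated cells were 1.62-fold above KO (1.28 to 2.05) and 1.27-fold above WT (1.02 to 1.58). Endothelial cells held 39.8 CPM in WT (31.7 to 49.2) and 54.9 in treated (32.8 to 86.3), a ratio of 1.38 (0.786 to 2.30) whose interval spans 1. Its direction was not stable: the log2 ratio of 0.47 became −0.36 with the mean of each cell's CPM and −1.27 without the 5 cells with most Lrp5 reads in each library. Astrocytes held 61.5 CPM in WT (45.3 to 81.7), 13.0 in KO (5.06 to 27.3) and 30.4 in treated (16.8 to 50.6). The astrocyte KO ratio of 0.211 (0.0782 to 0.478) rests on 19 reads, 68.4% of them in 5 cells, and on the log2 scale it went from −2.24 to −1.04 with the mean of each cell's CPM. In Müller cluster 4, Lrp5 stood at 14.1 CPM in WT, 8.63 in KO and 12.7 in treated, a KO ratio of 0.612 (0.388 to 0.959), and in cluster 15 the treated cells were 1.84-fold above KO (1.10 to 3.13). In cluster 3, which held most WT Müller cells, the treated cells were 1.63-fold above WT (1.11 to 2.39). Microglia, the resident macrophages, held 8.23, 8.70 and 16.2 CPM, from 2, 12 and 11 reads. Horizontal cells, which held both Ndp and Tspan12, had no Lrp5 read in any library, where 3 counts would be 4.26, 2.20 and 1.60 CPM.

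Lrp6 (chr6:134446476-134566965, minus strand), the related Wnt co-receptor, had reads in every class. Müller cells held 40.7, 37.1 and 44.2 CPM, bipolar cells 33.3, 34.4 and 33.6, rods 48.4, 46.6 and 58.7, and horizontal cells 27.4, 27.1 and 26 CPM. Endothelial cells held 63.6 CPM in WT and 71.6 in treated, a ratio of 1.13 (0.699 to 1.75), or −1.06 on the log2 scale in place of 0.17 without the 5 cells with most Lrp6 reads in each library. Among bipolar cells the level depended on the type: rod bipolar cells held 21.8, 20.5 and 20.0 CPM, below OFF cone bipolar cells at 39.5, 41.6 and 48.2 CPM past counting error in each library. The OFF cone bipolar cluster led by Gng2 and Bok stood at 45.8 CPM in WT (28.1 to 70.4), 71.5 in KO (39.7 to 119) and 88.4 in treated (61.0 to 124). In Müller cells Lrp6 in KO was 0.912 of WT (0.807 to 1.03).

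Ctnnb1 (chr9:120929216-120960507, plus strand), the gene of β-catenin, cannot be read alone in these tables. Its last part lies in the gene Ulk4, on the other strand, with 759 bases of exon in common, 475 of them at chr9:120960033-120960507. Exactly whole values, with no tolerance, made up only 12.9%, 17.3% and 13.8% of its nonzero values, while all values of the other 5 genes were exactly whole. With a tolerance of 0.001, 10.8%, 5.22% and 6.01% of its values were not whole. In each of the 3400, 3771 and 3442 barcodes where Ctnnb1 was not exactly whole, its sum with Ulk4 was whole within 0.001. Most of these Ctnnb1 values already lay within 0.001 of a whole number, so only the rest bear on the sum. Ulk4 held 85.1%, 85.9% and 88.0% of that sum, and the values of both genes are given as their sum where a result turns on them. The sum stood in Müller cells at 174 CPM (167 to 181), 182 (175 to 189) and 176 (168 to 185), a KO ratio of 1.04 (0.985 to 1.10). In endothelial cells it stood at 1041 CPM in WT and 868 in treated (771 to 974), a ratio of 0.834 (0.736 to 0.943), while Ctnnb1 by itself gave 0.621 (0.424 to 0.884). In rods, Ctnnb1 by itself gave 1.78 for KO against WT (1.01 to 3.36) and the sum 0.972, in a comparison where 43.4% of all genes tested were past 1.5-fold upwards. The median rod had 13885.5 reads in WT, 3127 in KO and 3037.5 in treated. The fold for Ctnnb1 was therefore past 1.5 in both classes only before the sum was taken.

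**Figure D4:**
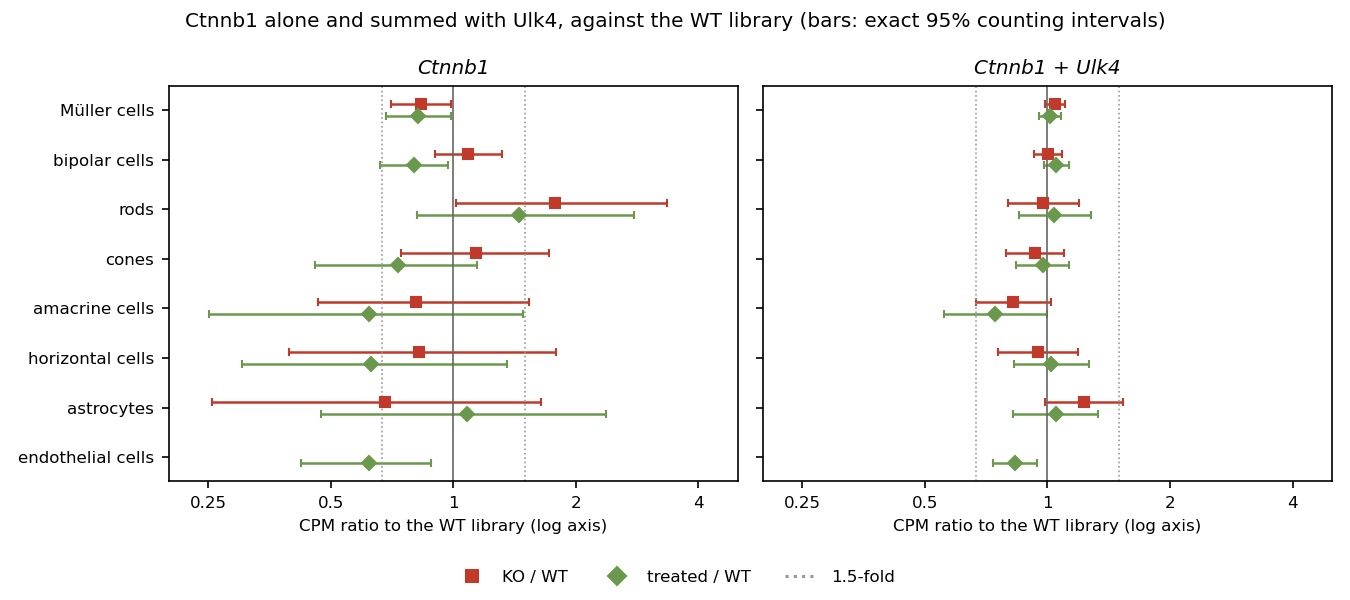
CPM ratio to the WT library for Ctnnb1 as deposited (left) and for the sum of Ctnnb1 and Ulk4 (right), by class, on a log axis with exact 95% counting intervals. The rod value for KO falls from 1.78 to 0.972 when the genes are summed.

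Reads of the receptor subunits were found together in single barcodes of the endothelial class, at median depths of 69104 reads in WT and 49107 in treated. Reads of Fzd4, Lrp5 and Tspan12 were all present in 58 of 88 WT endothelial cells (65.9%, exact interval 55.0 to 75.7) and in 10 of 21 treated cells (47.6%, 25.7 to 70.2). The product of the 3 shares gives 54.5% in WT, just below that interval, and 28.5% in treated, inside it. The class pools 2 clusters with median depths of 83368.5 and 18311 reads. Unequal depth alone can raise joint detection above the product, so the difference carries no conclusion. Every endothelial cell with Lrp5 reads also had Fzd4 reads, 61 in WT and 11 in treated. Among all barcodes with at least 8 of 12 endothelial markers, 79 of 83 with Lrp5 reads in WT and 23 of 24 in treated had Fzd4 reads. In Müller cells, which are shallower, the same 3 genes met in 0.353%, 0.587% and 0.641% of cells. Of the endothelial class, 56 WT and 12 treated cells lie in the cluster with 9 mural markers, and mural cells of the KO library held Fzd4 and Tspan12 themselves (60.1 and 75.2 CPM). Ndp and Tspan12 met in 9.99%, 14.8% and 9.38% of Müller cells, near the 9.30%, 13.9% and 8.15% that the product of their shares gives. Only 3 KO barcodes carried at least 8 of 12 endothelial markers, and 1 of them, with 37325 reads and 9 of 11 mural markers, held 4 reads each of Tspan12 and Fzd4 and 2 of Lrp5.

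The number of members past the fold was set beside the percentage of all genes tested that were past it. In Müller cells 6 members were tested and 1 (Ndp) was past 1.5-fold for KO against WT, where 20.4% of all genes tested were past it. For treated against KO it was 1 (Lrp5) of 6 beside 17.6%, and for treated against WT 1 (Tspan12) of 6 beside 11.8%. In endothelial cells 1 of 5 (Ctnnb1 as deposited) was past it beside 28.6%, and none of 5 with Ctnnb1 and Ulk4 summed. For KO against WT it was 2 of 4 in horizontal cells (Ndp and Tspan12) beside 18.5%, 1 of 4 in amacrine cells (Tspan12) beside 27.0%, 3 of 5 in astrocytes (Ndp, Tspan12 and Lrp5) beside 27.9%, and 0 of 3 in bipolar cells beside 16.3%. Tspan12, which is among the members counted, is itself the gene targeted in the KO and treated mice. The part of the altered allele in its reads was not tested. The median log2 ratio of the 6 genes in Müller cells was −0.31 for KO against WT, and that of all genes tested −0.02. Ctnnb1 as deposited entered that median at −0.26, where its sum with Ulk4 stood at 0.06.

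The wider pathway was read from lists of 88 genes, 82 of them in the tables and 73 tested in Müller cells. For KO against WT 5 were past 1.5-fold higher and 6 lower, where 9.41% and 10.9% of all genes tested were. For treated against KO it was 6 higher and 4 lower, beside 9.14% and 8.5% of all genes. None of the 12 genes of the destruction complex, which breaks β-catenin down, was past it in either comparison. Among genes of receptor turnover, Lgr5, a receptor for R-spondins, was 3.26-fold higher in KO than in WT (2.22 to 4.88), at 8.56 against 2.63 CPM, and Znrf3, a ligase that removes Frizzled receptors, was at 0.647. Frat1 and Frat2, which bind GSK3, were both at 0.582 of WT and at 1.88 and 1.62 in treated against KO. Reck, a partner of the Wnt7 receptor complex, was at 0.539 of WT in KO and at 1.94 for treated against KO. Among the nuclear partners of β-catenin, the co-repressor gene Tle1 was at 0.548 (0.494 to 0.608) and 1.76, and its relative Tle3 at 1.92 (1.71 to 2.17) and 0.595. These comparisons share the KO library. Set against WT directly, the treated Müller cells had no listed gene past the fold, where 11.8% of all genes tested were past it. Frat1 stood at 1.09, Frat2 at 0.942, Reck at 1.05, Tle1 at 0.965, Tle3 at 1.15 and Znrf3 at 0.943. These genes were named for their large ratios in comparisons with the KO library, so a value nearer WT carries no conclusion. Among 19 other tetraspanins tested in Müller cells, Tspan17 was 1.88-fold and Cd151 1.60-fold higher in KO and none was lower past the fold. In endothelial cells, treated against WT, 62 of the genes were tested, 6 higher and 9 lower beside 10.1% and 18.4% of all genes, with Ryk, a Wnt receptor, at 1.52 (1.06 to 2.13). Amer1 stood at 0.326 (0.0340 to 1.31) and Axin2, a target of the pathway itself, at 1.24 (0.751 to 1.97), intervals that span 1.

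The genes whose log2 level followed each member most closely over 26 sums of class and library, among 12908 genes, included Fam174b and 2210408F21Rik for Ndp (Pearson r of 0.91 and 0.90). They were Sema6a, Cachd1 and Gpr153 for Tspan12 (0.91 to 0.93), Rhbdf2, Dock9 and Dusp7 for Fzd4 (0.85 to 0.88), and Clec2d, Tcim and Ccdc102a for Lrp5 (all 0.96). For Lrp6 they were Epas1, Sft2d2 and Lims1 (0.84 to 0.89), and for Ctnnb1 as deposited Nostrin, Cdh5 and Thbd (0.93 to 0.95). Between members, Ndp and Tspan12 stood at r = 0.73, Lrp5 and Lrp6 at 0.72, and Ndp and Fzd4 at −0.66. These sums share libraries and depth, so the values describe the profiles and carry no test.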

How the data were processed

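Each of the 3 samples is 1 10x Chromium 3′ v3 library, and the submitters' processing notes name the build mm10 and Partek 9.0, without a role for either. The authors deposited estimated counts per gene and barcode, not scaled, a unit read from the values: 2.39%, 2.33% and 2.34% of nonzero values (WT, KO, treated) were more than 0.001 from a whole number. No source used here says how they were made or whether reads were collapsed to molecules. In genes seen in 5 to 100 barcodes, 53.2%, 53.3% and 48.3% of values up to 10 were 1, so values are called reads, and were rounded and divided by 2.90, 2.87 and 3.19 for every interval and minimum.

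Barcodes with at least 500 genes and at most 20% mitochondrial reads were kept, without the 4.87%, 8.61% and 7.87% ranked highest as doublets against simulated ones. Cells were scaled to 10000 reads and clustered together (2000 variable genes, 40 components, 15 neighbours, Leiden resolution 1.0, with the endothelial cluster split at 0.5) with leidenalg 0.10.2, scikit-learn 1.9.0 and Python 3.11.15. A class name needed 3 markers at 2-fold and in 20% of the cells. A vascular cluster with 12 endothelial and 11 mural markers stayed unnamed. Unnamed clusters entered no comparison.

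Reads were summed per class and library. CPM has exact Poisson, shares exact Clopper-Pearson and ratios exact conditional binomial 95% intervals. Genes were tested against the fold of 1.5 at 20 molecule equivalents over both libraries and 20 cells in each (10 for endothelial cells). A level without reads is given as that of 3 counts per library. TMM factors came from edgeR 4.0.16. The members, lists and thresholds were chosen with earlier results of these data known. The pathway genes named are among the 4 of each list with the largest ratio, and similar genes are the 3 with the highest r for each member, of which 1 is not reported here. The split of the endothelial cluster, the doublet ranking, the gene range behind the divisors and the cut for naming cells one by one were settled after the data were seen. Listed genes missing from the tables were not analysed here.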

Additional observations from a re-analysis of the deposited data

How the results depend on the processing

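Of 74 alternative values of the main counts, 56 stayed within 1.5 times and 18 moved. Of 394 alternative ratios of single genes, 1 called ratio turned its direction: Ctnnb1 in rods for KO against WT, from 0.83 to −0.040 on the log2 scale with Ulk4 added. Rod ratios were recomputed under no other alternative. With a 2-fold threshold the members past it were 0 in each of the 3 Müller comparisons, 0 in endothelial cells and 3 over bipolar, amacrine and horizontal cells and astrocytes for KO against WT (6 at 1.5-fold; rods were not counted there and WT microglia were too few), and the pathway genes in Müller cells were 1 for KO against WT (11 at 1.5-fold) and 3 for treated against KO (10 at 1.5-fold). Neither for the 2-fold threshold nor for the other alternatives below is the share of all genes past the fold given. Their counts thus show only how the main counts moved, with no conclusion about the members or lists. For treated against KO in Müller cells the count of 1 became 0 with the mean of each cell's CPM and 2 without the clusters that carry rod or cone markers. The Müller cluster taken as shared most evenly was cluster 4 for KO against WT and for treated against KO. For treated against WT it was cluster 3, with 386 treated and 963 WT cells, where cluster 4 held 334 and 329. In these single clusters the counts were 2 for KO against WT, 0 for treated against KO and 2 for treated against WT. With Müller cells named one by one by their own markers they were 0 for KO against WT, where Ndp stood at a log2 ratio of 0.37, and 3 for treated against WT. There Lrp5 for KO against WT also turned to 0.15 from −0.35. In endothelial cells the count of 1 became 0 with no doublets left out. Alternatives chosen after seeing the data gave 0 there with Ctnnb1 and Ulk4 summed, and 5 without the 5 cells with most reads of each gene, where all 5 ratios fell to between −1.66 (Ctnnb1) and −0.98 (Tspan12) on the log2 scale; 5 cells are a larger share of 21 treated than of 88 WT cells. Ranked by the share of cells with reads rather than by CPM, the highest class was the same for 10 of 18 pairs of gene and library, and for 13 after thinning. Tspan12 for treated against WT in Müller cells was past the fold in all 11 alternatives (log2 −0.81 to −0.66). The only single cluster among these alternatives was cluster 3. In clusters 4, 15 and 10 the ratio was 0.871, 0.763 and 0.718, short of the fold, with intervals that span 1. In cluster 6, with 25 WT cells, it was 0.346, past the fold. In horizontal and amacrine cells Tspan12 was past the fold in all 5 alternatives, for KO and for treated against WT. No paired analysis was possible because each group has 1 library, and for the same reason no replicate could be left out. Cell number limits the rare classes: 26 KO and 22 treated astrocytes, 1 KO endothelial cell and 14 WT microglia.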
